A study of Rattus norvegicus with 6 samples.

Results

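Duct cells and other simple epithelia carry a small set of marker genes, and 9 of them were followed here in sorted rat β-cells: the keratins *Krt19*, *Krt7*, *Krt20*, *Krt8* and *Krt18*, the transcription factor *Sox9*, the chloride channel *Cftr*, the secreted phosphoprotein osteopontin (*Spp1*) and the cell adhesion molecule *Epcam*. They were taken by gene name from the array files, as a list of known duct and epithelial genes. No value entered the rule, but the list was chosen with earlier results of these data known. All 9 were on the array, among 36174 gene names, and they had 17 of the 45598 probes and 44 of the 58717 spots that were not controls.

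RNA of 3 samples of replicating and 3 of quiescent β-cells was read on 6 microarrays with a single dye, Cy3. The islets came from young adult male Wistar rats and were cultured with EdU, a thymidine analogue that is built into newly made DNA, in all groups alike. After dispersion the cells were labelled with Newport Green, a zinc dye that marks the insulin granules of β-cells, fixed with paraformaldehyde and sorted by size, granularity, Newport Green and EdU. EdU-positive cells made the replicating group and EdU-negative cells the quiescent group, and each of 3 islet preparations, pooled from 4 rats, gave 1 array of each. The gate selects cells by dye and light scatter and not by a cell type gene, and the labels name no genetic change in either group.

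Keratins are the intermediate filaments of epithelial cells and assemble from pairs of a type I and a type II chain, such as KRT18 with KRT8 in simple epithelia. In the adult pancreas, KRT19 and KRT7 are best known from the ducts, where SOX9 keeps the duct program, CFTR moves chloride for the bicarbonate-rich juice and osteopontin is secreted. KRT8, KRT18 and EPCAM are wider epithelial genes, and the islet's endocrine cells have some of each. In RNA from a sorted population, a few cells of another type and a low level of the gene in all cells cannot be told apart.

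The probes behind the results below are oligonucleotides of 60 bases, shown as the array files give them. The first pair belongs to the genes that were higher in replicating cells, and the third to the gene with the lowest ratio. *Epcam* was placed on the rat build rn4 at chr6:11181855-11182638, a span of 784 bases and therefore over more than 1 exon, and *Krt20* at chr10:88336090-88336149 with coordinates listed in descending order. The *Spp1* probe had no position in the files.
Spp1: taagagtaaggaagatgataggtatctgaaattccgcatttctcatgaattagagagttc
Epcam: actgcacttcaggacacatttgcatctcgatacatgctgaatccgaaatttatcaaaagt
Krt20: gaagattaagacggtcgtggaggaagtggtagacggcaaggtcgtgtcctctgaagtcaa

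The next 4 probes are shown because the probes of these genes differed in sign or in size. Both *Krt7* probes here, without a position in the files, had ratios above 0 while the brightest probe of *Krt7* lay below 0. The *Sox9* probes lie within 1 gene on chromosome 10, at chr10:102387172-102387231 and chr10:102388891-102388950. Capitals mark a run of AGC repeats in the brightest *Sox9* probe, AGCAGCAGCAGC, which 13 of the 45598 probes (0.0285%) held on either strand and 7 on the same strand.
Krt7, first: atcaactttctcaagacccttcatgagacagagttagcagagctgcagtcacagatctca
Krt7, second: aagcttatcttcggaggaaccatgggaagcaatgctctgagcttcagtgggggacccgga
Sox9, upstream: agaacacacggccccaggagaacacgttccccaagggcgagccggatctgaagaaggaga
Sox9, brightest: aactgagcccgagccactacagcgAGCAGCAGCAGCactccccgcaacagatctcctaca

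Values below are log2 of the normalized intensity as the authors deposited it, averaged over the spots of a probe, and a ratio is replicating over quiescent within a preparation. A gene with several probes is given by the brightest one. A gene is called higher or lower at an unadjusted p of at most 0.05 with an absolute log2 ratio of at least 1, the rule of the study, in limma with the preparation as a block. Intensities of different probes have no common scale, so levels are not compared between genes. Mean values only served to choose the genes to name in a list, and the summed level of a list is compared only between arrays.

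The share of spots well above background was 84.3 to 98.7% on the arrays. Replicating arrays correlated with each other at 0.967 to 0.986. The quiescent array of preparation 2 stood apart, with r of 0.83 and 0.654 to the other quiescent arrays and 1583 outlier spots against 252 to 299 elsewhere. The quiescent array of preparation 1 was also apart, with r of 0.867 to that of preparation 3 and 0.869 to 0.887 to the replicating arrays, and the quiescent array of preparation 3 was closer to the replicating arrays (0.943 to 0.969) than to either quiescent array. The quiescent arrays of preparations 1 and 2 had 97.0 and 98.7% of spots well above background, and the other 4 arrays 84.3 to 89.8%. Over the whole array, 2023 probes (4.44%) were called higher and 1905 (4.18%) lower in replicating cells, and 0 probes had a Benjamini-Hochberg adjusted p under 0.05 in limma, while 4379 (9.6%) had an unadjusted p of at most 0.05. All 10 proliferation genes were called higher, with a median log2 ratio of 4.07. Of the β-cell markers, 15 of 16 were on the array and all 15 were well above background on all arrays.

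Of the 9 genes, 2 were called higher in replicating cells and 0 lower, against the 4.44% and 4.18% of all probes. *Spp1* and *Epcam* were the 2 called. The other 7, including all 5 keratins, *Sox9* and *Cftr*, did not pass. The median log2 ratio of the 9 genes was -0.20, with -0.07 over all probes, and by preparation it was 0.01, -0.34 and 0.19. The groups did not overlap for *Spp1* and *Epcam*, with replicating higher, and for 0 genes with replicating lower, orders that 9.01% and 7.1% of the 44652 probes with all values had. In all 3 preparations 3 genes lay above 0 (*Spp1*, *Epcam* and *Krt18*) and 1 below (*Krt7*), at their brightest probes. The other probes of *Krt18* and *Krt7* did not keep 1 sign. How many of all probes kept 1 sign was not counted.

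**Figure D1:**
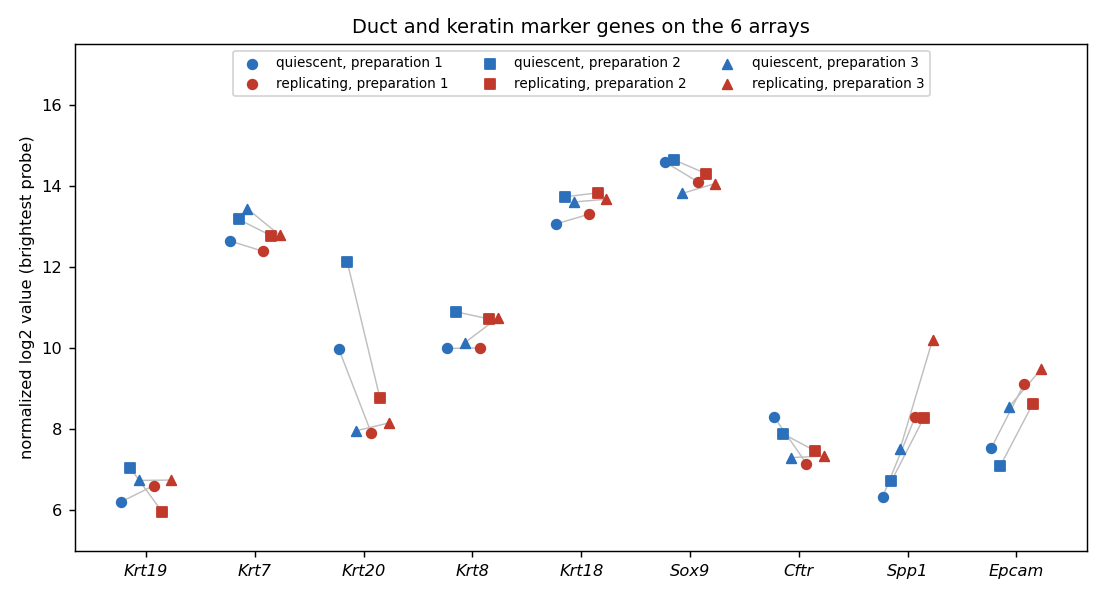
Normalized log2 value (y axis) of the brightest probe of each of the 9 genes (x axis) on the 6 arrays, quiescent in blue and replicating in red, with a line between the pair of arrays of a preparation. Every *Spp1* and *Epcam* value of the replicating arrays, from 8.29 and 8.63 up, lies above those of the quiescent arrays, and the *Krt20* values of the quiescent arrays spread from 7.96 to 12.11.

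*Spp1* encodes osteopontin, a secreted phosphoprotein of duct epithelium that macrophages and stromal cells also make. Its log2 value was 8.31, 8.29 and 10.21 in replicating cells of preparations 1, 2 and 3, and 6.33, 6.72 and 7.51 in quiescent cells. All 3 replicating arrays were above all 3 quiescent arrays, with a gap of 0.78, and preparation 3 had the highest value of both groups. The ratio was 2.09 ± 0.37 (SE, n = 3 pairs) on the log2 scale, or 4.24-fold with a 95% interval from 2.23 to 8.09 (limma, adjusted p = 0.356). Within the preparations it was 1.98, 1.57 and 2.70. The probe was printed on 10 spots, whose log2 values had an SD of 0.0553 to 0.342 within an array. *Spp1* passed under all 13 alternatives, at 1.78 to 2.97, though several of them left its ratio at 2.09. Without the quiescent array of preparation 2 and without the block the ratio was 2.02.

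*Epcam* encodes a homophilic adhesion molecule of epithelial cell membranes. It read 9.12, 8.63 and 9.49 on the replicating arrays and 7.54, 7.09 and 8.54 on the quiescent arrays. The groups did not overlap, but the gap was 0.08, since quiescent cells of preparation 3 came close to replicating cells of preparation 2. The log2 ratio was 1.35 ± 0.33 (SE, n = 3 pairs), or 2.56-fold with an interval from 1.44 to 4.55 (limma, adjusted p = 0.475). Within the preparations it was 1.57, 1.54 and 0.95. *Epcam* lost the call without preparation 1 (1.24), with normexp values scaled to the 75th percentile (0.89) and with the processed signal scaled that way (1.04). With that scaling, the median of all probes was -0.39 and -0.71 in place of -0.07. Without the quiescent array of preparation 2 and without the block the ratio was 1.03.

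Some markers of other cells moved with the groups beside these results. Of 16 fibroblast and stellate cell markers, 6 were called higher and 0 lower, against 4.44% and 4.18% of all probes. All 16 had ratios above 0, with a median of 0.97. Their summed level, on the linear scale of the normalized intensity, was 19721 to 50774 on the replicating arrays and 9314 to 11270 on the quiescent arrays. The collagen genes *Col6a3*, *Col3a1* and *Col1a2* had log2 ratios of 3.06 (0.82 at its second probe), 3.04 and 2.93, and the intermediate filament gene of mesenchymal cells, *Vim*, had 1.89. Of the defining markers, *Lum* and *Fn1* were not well above background on every array. The number called higher was 5, 10 and 6 without preparations 1, 2 and 3.

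Of 16 immune markers, 4 were called higher and 0 lower: *Cd74*, *C1qc*, *Cd68* and *Cd14*, with ratios of 1.48, 1.34, 1.32 and 1.18. Of all probes, 4.44% were called higher and 4.18% lower. Ratios were above 0 for 10 of the 16 and below 0 for 6, with *C1qa* (-0.83) and *Tyrobp* (-0.71) the lowest. The list had a median of 0.25 and a summed level of 11285 to 15170 on replicating and 6935 to 21671 on quiescent arrays. *Ptprc*, the marker of all leukocytes, was among the 4 not well above background on every array, with *Cd3e*, *Cd163* and *Gpnmb*. Of 13 markers of the other islet endocrine cells, 5 were called higher and 0 lower, glucagon (*Gcg*) among them at 2.39, and the summed level was 29230 to 102595 on replicating and 13622 to 23063 on quiescent arrays. Without preparation 1 the count called higher was 0 for the immune and 2 for the endocrine list, and without preparation 2 it was 6 and 4. With the 75th percentile scalings of normexp values and of the processed signal it was 1 and 0 for the immune and 4 and 1 for the endocrine list. The immune median was 0.57 without preparation 2 and -0.10 without preparation 3. In the study, most cells of both β-cell fractions stained for insulin and c-peptide, and qPCR found glucagon RNA in some samples. Those are different measures from the arrays. The part of fibroblast, immune and other endocrine cells in the *Spp1* and *Epcam* results was not tested.

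Simple epithelial keratins had small ratios. *Krt18*, the type I chain of the pair, read 13.30, 13.83 and 13.67 on the replicating arrays and 13.06, 13.73 and 13.60 on the quiescent arrays at its probe of 10 spots, whose spot SD was 0.0594 to 0.111. Preparation 1 was the lowest of both groups, and the groups overlapped. On the log2 scale the ratio was 0.14 with a 95% interval from -0.64 to 0.91 (limma, adjusted p = 0.846). Its second probe, which the files place at chr2:80043817-80043876, had 0.35. The RefSeq table for the assembly GRCr8 has *Krt18* on chromosome 7 and a separate gene, *Krt18l1*, on chromosome 2, so the position does not match the locus of *Krt18* and which of them this value belongs to is uncertain.

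*Krt8*, the type II partner, read 9.99, 10.89 and 10.13 on the quiescent arrays and, for replicating cells, 10.72 in preparation 2 and 10.74 in preparation 3. In preparation 1 the replicating array was 0.01 above the quiescent one, and the groups overlapped. Its ratio was 0.15 with an interval from -0.71 to 1.00 (limma, adjusted p = 0.847), and the preparations gave 0.01, -0.17 and 0.61. Without preparation 3 the sign turned, at -0.08. The *Krt8* probe lies at chr7:140716967-140717949 and spans 983 bases, over more than 1 exon. In the same RefSeq table, *Krt8* and *Krt18* are neighbours, with 0 protein-coding genes between them. Their values over the 6 arrays had a Pearson r of 0.84, as a description of arrays that share preparations.

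*Krt7*, a type II keratin of duct cells, read 12.39, 12.77 and 12.78 on the replicating arrays and 12.64, 13.18 and 13.44 on the quiescent arrays at its brightest probe. Each replicating array was below the quiescent array of its own preparation, by 0.25, 0.40 and 0.66, and the groups overlapped. This gave a log2 ratio of -0.44 with an interval from -1.23 to 0.35 (limma, adjusted p = 0.529). That probe, at chr7:140175626-140175685, is assigned to a predicted transcript. The other probes of *Krt7*, whose sequences are given above, had ratios of 0.62 and 0.37. They read 9.50 and 10.73 on the quiescent array of preparation 2 and 11.07 to 11.57 and 11.48 to 11.89 on the other quiescent arrays, and outside preparation 2 their ratios were -0.07 to 0.03. The direction of *Krt7* therefore depended on the probe.

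*Krt19*, a type I keratin and the usual duct marker, read 6.61, 5.95 and 6.75 on the replicating arrays and 6.21, 7.06 and 6.74 on the quiescent arrays. The replicating array of preparation 2 was not well above background and the lowest of all 6. Its log2 ratio was -0.23 with an interval from -1.28 to 0.82 (limma, adjusted p = 0.802), and without preparation 2 it turned to 0.21. Its probe lies at chr10:89081437-89081496.

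**Figure D2:**
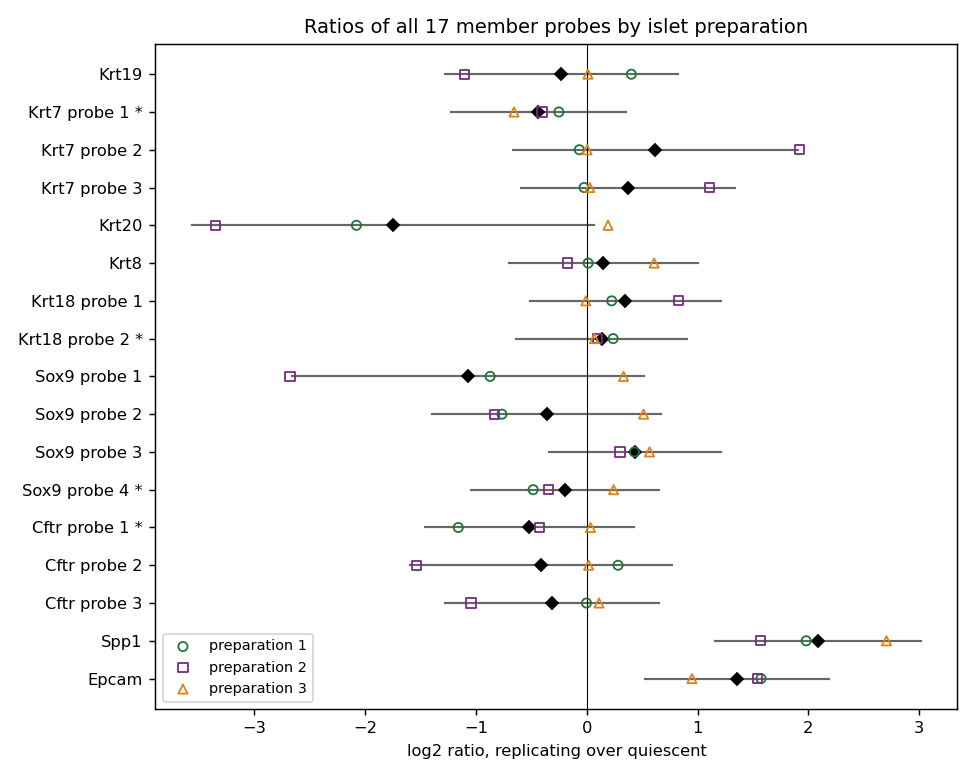
Log2 ratio of replicating over quiescent (x axis) for all 17 probes of the 9 genes (y axis; an asterisk marks the brightest probe of a gene), as open symbols for the 3 preparations and a black diamond with the 95% interval of the limma fit. The intervals of *Spp1* (1.15 to 3.02) and *Epcam* (0.52 to 2.19) lie above 0 and those of the other 15 probes include 0.

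*Krt20*, a type I keratin of intestinal epithelium that also marks rat pancreatic duct cells, had the lowest ratio of the 9 genes and the widest spread. The study reports its RNA as undetectable by qPCR in the sorted β-cell fractions, a different measure from the arrays. On the arrays *Krt20* read 7.91, 8.76 and 8.15 in replicating cells and 9.99, 12.11 and 7.96 in quiescent cells. The quiescent arrays of preparations 1 and 2 were above every replicating array, and that of preparation 3 was within their range. A log2 ratio of -1.75 ± 0.71 (SE, n = 3 pairs) resulted, with an interval from -3.56 to 0.07, and it did not pass the rule (limma, adjusted p = 0.475). The preparations gave -2.08, -3.35 and 0.19.

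The *Krt20* call turned on the fit and on single arrays. It passed without preparation 3 (-2.72), with a variance trend, among probes well above background and at a normexp offset of 0 (-1.88). With normexp values scaled to the 75th percentile (-1.60) it passed too. It did not pass with the processed signal scaled that way (-1.80), without the block alone (-1.75) or without preparation 1 (-1.58). Without the quiescent array of preparation 2 and without the block the ratio was -0.70, and without the whole of preparation 2 it was -0.94, and neither passed. Over the whole array the SD of the ratios of all probes was 1.01, 1.60 and 0.503 in preparations 1, 2 and 3, so that preparation 3 had the narrowest spread.

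The other keratins on the array were 42 genes, mostly of skin, hair and stratified epithelium. Of these, 36 had ratios below 0, and 3 were called lower and 0 higher, against 4.18% and 4.44% of all probes. The median log2 ratio was -0.52, with -0.07 over all probes. *Krt23*, *Krt24*, *Krt26*, *Krt32*, *Krt77* and *Krt82* were not well above background on every array. By preparation the median was -0.51, -1.18 and -0.01, so that preparation 3 showed no shift. The 3 called lower were *Krt25*, a keratin of the hair root sheath, at -1.90, *Krt77* at -1.56 and *Krt4*, of mucosal stratified epithelium, at -1.08. *Krt77* was well above background on 1 of the replicating arrays, and its second probe had -0.09. *Krt79* and *Krt33a*, which with *Krt4* had the highest mean values, had ratios of -1.08 and 0.26 and did not pass, and the second *Krt33a* probe had -1.07.

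The median of the other keratins was below 0 under all 13 alternatives, from -1.09 to -0.16. It was -0.24 without preparation 2 and -0.16 without both the quiescent array of preparation 2 and the block. The number called lower was 13 without preparation 3, 1 without preparation 2 and 0 without preparation 1, and it was 7 and 5 with the 75th percentile scalings. Their summed level was 32279, 57226 and 14541 on the quiescent arrays and 16009, 20096 and 14892 on the replicating arrays.

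**Figure D3:**
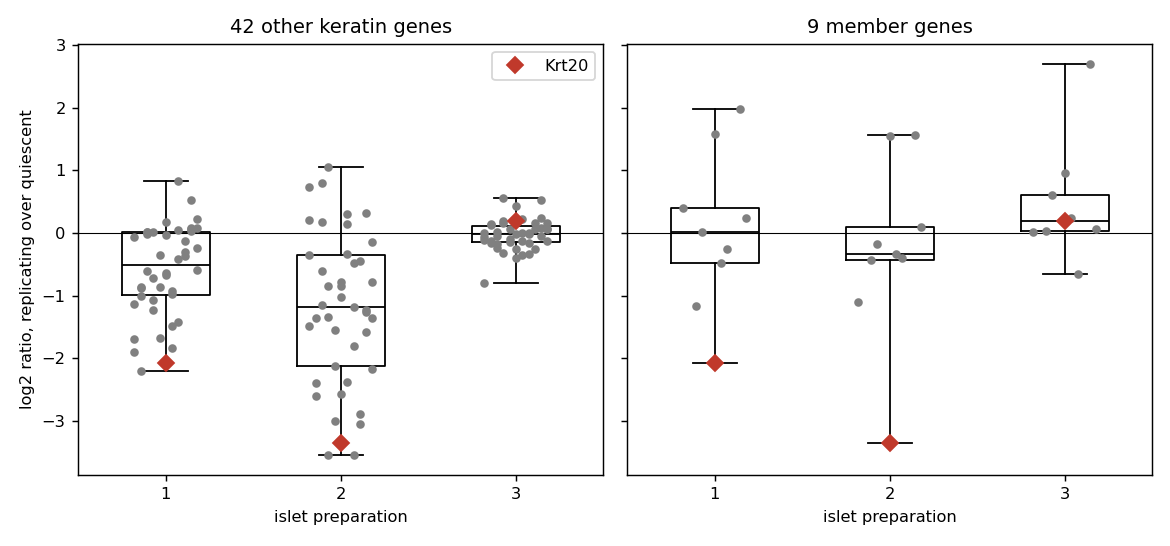
Log2 ratio of replicating over quiescent (y axis) in islet preparations 1, 2 and 3 (x axis) for the 42 other keratin genes (left) and the 9 duct and epithelial markers (right), with each gene as a grey point, the box over the quartiles, whiskers over the whole range and *Krt20* as a red diamond, set beside the 42 for reference. *Krt13* has no value in preparation 2, where its spot was marked as an outlier. The left medians are -0.51, -1.18 and -0.01, and *Krt20* lies near the low end in preparations 1 and 2 and at 0.19 in preparation 3.

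The base content of the probes moved with the ratios too. The *Krt20* probe has 51.7% G and C, the *Epcam* probe 38.3% and the *Spp1* probe 35%. Over the whole array, the median ratio of probes with at least 50% was -0.20, -0.35 and 0.05 by preparation, and that of probes under 40% was 0.23, 0.17 and -0.13. The part of base content in the ratios was not tested.

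*Sox9*, the transcription factor of duct and progenitor cells, read 14.10, 14.30 and 14.06 on the replicating arrays and 14.59, 14.64 and 13.82 on the quiescent arrays at its brightest probe. The quiescent arrays of preparations 1 and 2 were the highest and that of preparation 3 the lowest of the 6. This gave a log2 ratio of -0.20 with an interval from -1.04 to 0.65 (limma, adjusted p = 0.79).

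The *Sox9* probes differed in size and, at a probe near background, in sign. The upstream probe printed above had -1.07, resting on a value of 12.03 on the quiescent array of preparation 2 against 8.71 to 9.63 on the other quiescent arrays, and the probe at chr10:102388988-102389047 had -0.36. All 3 of these probes had ratios below 0 in preparations 1 and 2 and above 0 in preparation 3. The probe at chr10:102389659-102389718, with 23.3% G and C, was well above background on 1 replicating and 0 quiescent arrays. It read 6.49, 6.21 and 6.82 on the replicating and 6.06, 5.91 and 6.25 on the quiescent arrays. Its ratio was above 0 in each preparation. No fold is given, since most of these signals were not well above background (limma, adjusted p = 0.528).

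*Cftr*, the chloride channel of the duct cell's apical membrane, read 7.15, 7.47 and 7.34 on the replicating arrays and 8.31, 7.89 and 7.30 on the quiescent arrays. The quiescent arrays of preparations 1 and 2 were above every replicating array. Its log2 ratio was -0.52 with an interval from -1.46 to 0.43 (limma, adjusted p = 0.532). The other 2 probes were well above background on 1 replicating and 2 quiescent arrays each and had ratios of -0.41 and -0.31. In preparation 1 they gave 0.28 and -0.003. The brightest *Cftr* probe lies at chr4:44010447-44010506 and is assigned to a predicted transcript.

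At their brightest probes, *Krt20*, *Sox9* and *Cftr* shared an order over the arrays, with preparations 1 and 2 below 0 and preparation 3 above. Not every other probe of *Sox9* and *Cftr* had this order. The quiescent arrays of preparations 1 and 2, on which these genes and the other keratins were higher, are the 2 with 97.0 and 98.7% of spots well above background, and the part of this difference between arrays was not tested. Pearson r over the 6 arrays was 0.87 for *Krt20* and *Sox9*, 0.84 for *Sox9* and *Cftr* and 0.74 for *Krt20* and *Cftr*, and 0.90 for *Spp1* and *Epcam*. The genes with values most like those of *Spp1* among 14334 genes were *Fut10* and *Tgfbi* (0.986 and 0.980), and *Scara3* and *Unc45a* were most like *Epcam* (0.996 and 0.994). For *Krt20*, *Mpv17l2* had an r of 1.00, and for *Krt7* the most alike were *Zer1* and *Mrpl38* (0.989 and 0.984). These are descriptions of 6 arrays that share preparations and a group.

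Of 24 other genes of duct cells, 2 were called higher and 1 lower, against 4.44% and 4.18% of all probes. The median log2 ratio was 0.04. *Prom1*, the membrane protein prominin of duct cells, had 1.62 (1.82, 2.39 and 0.64 by preparation), and *Slc4a4*, the sodium bicarbonate cotransporter that loads the duct cell, had 1.21, with 0.04 and 0.45 at its other probes. The water channel *Aqp1* had -1.38, and its preparations gave -1.88, -2.16 and -0.12, with -0.54 at its other probe. With a gene's median over its probes, 0 genes of the list were called lower. *Car2*, the carbonic anhydrase, had 0.89 and did not reach the ratio of the rule. *Lcn2*, *Cd24* and *Clu*, the 3 with the highest mean values, had 0.11, 0.23 and 0.45. *Dcdc2* was among the 3 genes not well above background on every array. Ratios were above 0 for 12 of the 24 genes. The count called higher was 0, 1 and 4 without preparations 1, 2 and 3, and that called lower was 0, 0 and 3. With the 75th percentile scalings the median was -0.16 for normexp values and -0.60 for the processed signal, against -0.39 and -0.71 over all probes.

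Genes of epithelial junctions and of the linkers that hold keratin filaments were mostly above 0. Of 26 on the array, 19 had ratios above 0, and 2 were called higher and 0 lower, against 4.44% and 4.18% of all probes. The median was 0.56, or 0.61, 0.85 and 0.18 by preparation. *Itga6*, the integrin chain of hemidesmosomes, had 1.51 and *Jup*, the plakoglobin of desmosomes, 1.23. *F11r*, a tight junction adhesion molecule, had 0.96, did not reach the ratio of the rule and had -0.37 at its second probe. *Tjp3*, *Ctnna1* and *Cldn7*, those with the highest mean values, had 0.28, 0.43 and 0.44. The number called was 0, 1 and 5 without preparations 1, 2 and 3 and 1 and 0 with the 75th percentile scalings, and the median was above 0 under all 13 alternatives, at 0.23 to 0.75.

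Among 26 regulators of the epithelial program, including those that oppose it, 2 were called higher and 1 lower, with a median of 0.28. Of all probes, 4.44% were called higher and 4.18% lower. *Klf5*, a transcription factor of proliferating epithelium, had 1.65, and *Snai1*, a repressor of epithelial genes, had 1.43 and was higher in each preparation, by 1.79, 1.54 and 0.97. *Ovol1*, a transcription factor that keeps epithelial identity, had -1.16, of which preparation 3 had -0.07. The other 2 *Ovol1* probes had -0.05 and 0.22, and those of *Klf5* ranged from 0.29 to 2.17. The protease inhibitors *Spint1* and *Spint2*, with high mean values, had 0.32 and 0.13. The count called higher was 0, 4 and 6 without preparations 1, 2 and 3, and that called lower was 0, 0 and 1. With normexp values scaled to the 75th percentile 3 were called lower, and without preparation 3 the median was 0.58.

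Acinar cells are the other exocrine cells that a pancreatic sort could hold. The study reports amylase and *Pecam1* RNA as undetectable by qPCR in the sorted β-cell fractions, a different measure from the arrays. Of 20 acinar markers, 1 was called higher, the trypsinogen *Prss1* at 1.56, and 0 lower, against 4.44% and 4.18% of all probes. Their median was 0.04, with a summed level of 10993 to 92258 on replicating and 8359 to 46759 on quiescent arrays. That level followed the preparation, with preparation 1 the lowest of both groups. *Pnlip*, *Ptf1a* and *Spink1* were not well above background on every array. Of 12 endothelial markers 0 were called, with a median of 0.34 and a summed level of 6292 to 12572 on replicating and 7631 to 17587 on quiescent arrays. *Tie1*, *Esam* and *Emcn* were not well above background on every array. Of 15 β-cell markers, *Mafa* was called lower, at -1.01, and 0 were called higher, with a median of -0.15. Ratios were above 0 for 6 of them and below 0 for 9. *Ins1*, *Ins2* and *Iapp*, those with the highest mean values, had 0.25, 0.42 and 0.91, and the second *Iapp* probe had -0.14. By qPCR, a different measure, the study reports insulin lower in replicating cells. Without preparation 1, *Prss1* and *Mafa* lost their calls and 0 acinar and 0 β-cell markers were called, and without preparation 3 the endothelial list had 3 called higher and 2 lower. The endothelial median was -0.10 without preparation 2 and 1.07 without preparation 3. With the 75th percentile scalings the median of all probes was -0.39 and -0.71. That of the acinar markers was -0.23 and -0.57, and that of the endothelial markers -0.22 and -0.44.

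**Figure D4:**
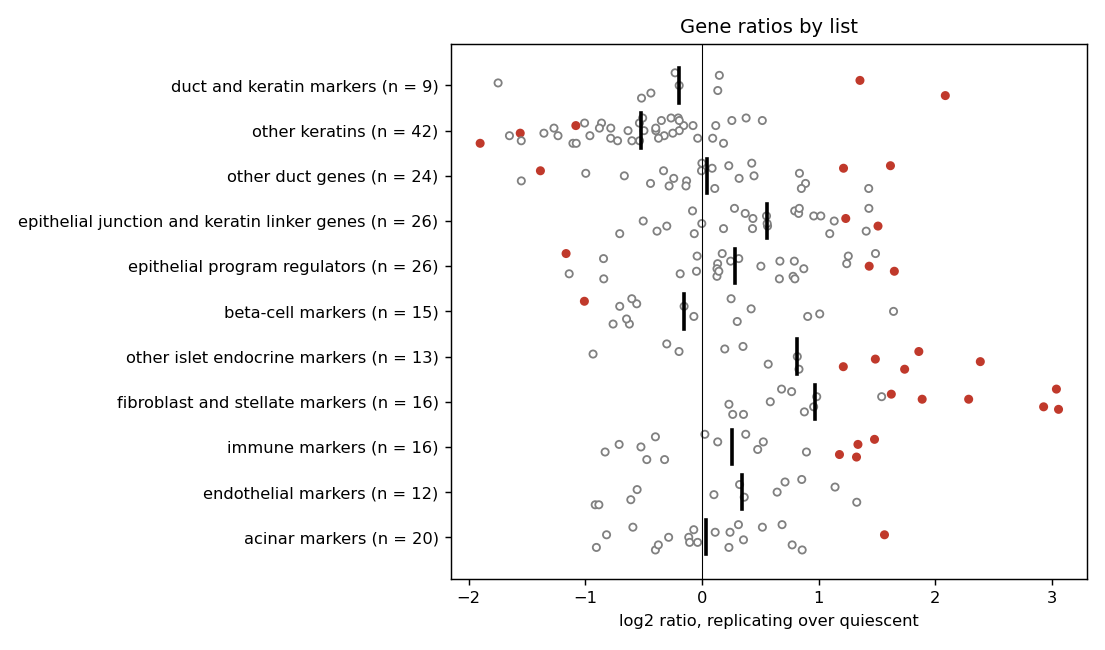
Log2 ratio of replicating over quiescent (x axis) for each gene of the 9 duct and epithelial markers and of 10 other lists (y axis, with the number of genes), with called genes filled in red, others open, and a black bar at the median of a list. The 9 markers spread from -1.75 to 2.09 around a median of -0.20, the other keratins lie mostly below 0 and the fibroblast and stellate markers all above 0.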

How the data were processed

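RNA of the sorted cells went through whole transcriptome amplification and Cy3 labelling before hybridization to rat arrays of Agilent, all 6 on 1 slide with 1 scan day. The authors deposited the intensity of each spot from Feature Extraction 10.7.3.1, not normalized between arrays, and log2 values per spot that had been background-corrected by normexp and then quantile normalized. These log2 values were used here. Recomputed from the deposited intensity, with a normexp offset of 50 before the quantile step, they differed by at most 0.00025.

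Control spots and spots marked as outliers were left out, and spots of a probe were averaged. Signal well above background was read from the scanner files, where more than 50% of the spots of a probe had to pass. No spot was saturated (0 on each array). Each probe was fitted with limma 3.58.1 in R 4.3.3 (lmFit and eBayes), with a block for the preparation, the paired design that the study names, and p-values were adjusted by Benjamini-Hochberg over all 45598 probes. The number of arrays limits the precision. SEs, intervals and p-values are limma's moderated ones. They join a probe's spread over 3 preparations with the spread typical of all probes. The pairing comes from the labels and methods. Arrays of a pair deviated from their group means with an r of 0.0561, 0.242 and 0.259. Genes were named by the array files, and RefSeq gave the same symbol for 15 of 17 probes of the 9 genes. Of the listed genes, *Trp63* and *G6pc2* were not found by name.

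The genes named are the 9 markers with all probes, the 3 genes of lowest p and the 3 of highest mean value in each other list, the called genes of some lists, which were chosen after their values were seen, and the 2 most like a marker. The markers and lists were chosen with earlier results of these data known. The fit was tested on simulated data.

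The alternatives were normexp offsets of 50 and 0 from the scanner values, 75th percentile scaling of normexp values or of the processed signal, only probes well above background, outlier spots kept, a variance trend, no block, each preparation left out, a gene's median over its probes, and, chosen after seeing the data, leaving out the quiescent array of preparation 2 without a block. Only the arrays were analysed here, and some genes that meet the naming rule are not reported here.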

Additional observations from a re-analysis of the deposited data

How the results depend on the processing

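Of the 9 genes, *Spp1* kept its call under all 13 alternatives, and the direction of *Krt20*, *Krt18*, *Sox9*, *Cftr*, *Spp1* and *Epcam* was the same under all of them. Some alternatives, such as the fit without the block, cannot change the ratio of these genes. The number called higher fell from 2 to 1 with both 75th percentile scalings and without preparation 1 (range over preparations left out, 1 to 2). The number called lower rose from 0 to 1, *Krt20*, with the 75th percentile of normexp values, only probes well above background, an offset of 0, a variance trend and without preparation 3 (range 0 to 1). The median ratio became 0.15 with a gene's median over its probes, and -0.33 to 0.15 was its range over all alternatives, with 0.15 without preparation 2. Signs turned for *Krt7* with the median over probes (0.37), for *Krt19* without preparation 2 (0.21) and for *Krt8* without preparation 3 (-0.081). Over preparations left out, *Krt19* ranged from -0.55 to 0.21 and *Krt8* from -0.081 to 0.31. Over all alternatives the ranges were -1.91 to 0.21 and -0.081 to 0.43, with the -1.91 of *Krt19* from the processed signal. Over the whole array, 2023 higher and 1905 lower probes (51.5% higher) became 1879 and 878 without the replicate block, 1596 and 5862 (21.4%) with normexp values scaled to the 75th percentile, 662 and 3193 (17.2%) with the processed signal, and 1401 and 267 without the quiescent array of preparation 2 and the block. With each preparation left out they were 518 to 5112 higher and 63 to 5633 lower, the highest counts without preparation 3 and the lowest without preparation 1. Probes with an adjusted p under 0.05 were 0 in the fit reported and 99 without the block, 719 with the 75th percentile of normexp values, 61 with a variance trend, 151 without both the quiescent array of preparation 2 and the block, and 0 to 84 with each preparation left out, 84 without preparation 2. Without the pairing block no call of the 9 genes changed. The median over probes gives genes, so no probe count was made there. The causes were not tested. Signal over background limits *Krt19*, 2 *Cftr* probes and 1 *Sox9* probe.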
